A study of Homo sapiens with 9 samples.

Results

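The 56 genes described here carry a cell through G2 phase and mitosis. They were taken as a list of gene symbols, and every symbol was matched to 1 Ensembl identifier among the 58884 in the deposited tables. Of the 56, 55 passed the filter on low values and were tested among 14454 genes, and PRC1, a bundler of the central spindle, did not pass it. The genes were sorted into 8 role groups, of cyclins and CDK1, mitotic kinases, checkpoint and anaphase factors, kinesins, kinetochore proteins, spindle proteins, cytokinesis factors, and chromatin or transcription proteins.

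RNA was sequenced from HK-2 cells, a line of human proximal tubule epithelium that had been immortalised with papillomavirus oncogenes and was grown in serum-free keratinocyte medium. There were 3 groups of 3 libraries. In the lactoferrin+PM2.5 group the cells received lactoferrin, an iron-binding milk protein, over 6 h at a stated 40 mg/ml, followed by 18 h of PM2.5, fine airborne particulate matter, at a stated 1 mg/ml. In the PM2.5 group the cells received PM2.5 for 24 h, and the dose of 1 mg/ml is not stated separately for this group. Control cells were labelled untreated, and the treatment protocol gives them a matching vehicle. Cells of every group were near confluence when the treatment began. The lactoferrin+PM2.5 and PM2.5 groups differed in the length of PM2.5 exposure as well as in lactoferrin, so these 2 differences cannot be told apart. The labels give replicate numbers but do not say whether the replicates were separate cultures, and a p-value here therefore speaks only of the spread among these libraries, which may be technical.

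Entry into mitosis is driven by CDK1 bound to cyclin A or cyclin B, and exit from it by the anaphase-promoting complex, a ubiquitin ligase that marks cyclins and securin for destruction. Transcripts of the genes behind these steps accumulate as cells pass through S and G2 phase, under the MuvB complex with B-MYB and FOXM1, and are kept low in resting cells by the DREAM complex. Proximal tubule cells of the adult kidney seldom divide, but they re-enter the cell cycle after injury.

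Each library held between 15314492 (control replicate 1) and 18816306 (lactoferrin+PM2.5 replicate 1) assigned fragments, as rebuilt from the values. Values are FPKM, fragments per kilobase of exon, scaled to the assigned fragments of the library, a scale on which levels of different genes can be compared. The first principal component of all tested genes held 54.4% of the variance and set the control libraries apart from the other 6. Lactoferrin+PM2.5 replicate 1 stood apart on the second component, with 13.6% of the variance. The third, with 8.8%, spread the control libraries, from replicate 1 at -20.6 and replicate 2 at -11.1 to replicate 3 at 27.0. Of 14 proximal tubule markers, 12 were below 1 FPKM in every library, and the summed level of the list, nearly all of it PAX8, was 70.2 to 81.8 FPKM with lactoferrin+PM2.5, 81.7 to 89.6 FPKM with PM2.5 and 54.9 to 59.8 FPKM in control cells. LRP2, CUBN and AQP1, which define the mature proximal tubule, were at or near 0. Epithelial markers summed to 466.3 to 496.8 FPKM with lactoferrin+PM2.5, 500.0 to 519.5 FPKM with PM2.5 and 477.3 to 496.5 FPKM in control cells. Markers of immune cells summed to at most 2.34 FPKM in any library. Markers of fibroblasts and endothelium summed to 50.8 to 55.1, 66.2 to 68.1 and 48.1 to 54.4 FPKM in the same 3 groups, most of it LUM. LUM averaged 51.15, 64.88 and 42.95 FPKM in these groups, and COL1A1 1.14, 1.42 and 6.77 FPKM. KDR was at 0 in the treated groups.

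Most of the G2 and mitosis genes were lower in cells exposed to PM2.5 than in control cells. A gene was called where limma's moderated test across all 14454 genes gave a Benjamini-Hochberg adjusted p under 0.05. By that rule 43 of the 55 tested members fell, or 78.2%, against 16.4% of all genes, and 0 rose, against 18.7% of all genes. At an unadjusted p under 0.05 the counts were 46 lower, against 21.6% of all genes, and 0 higher, against 23.7%. The median log2 fold change of the members was -0.69, and that of all tested genes 0.0034. In the fit used, the direction was negative for each of the 55 members. CDC25B was above 0 with no scaling between libraries, and CKS2 without control replicate 1. MAD2L1 was above 0 once length and base composition of the transcripts had been allowed for. Of all genes, 50.4% were above 0. Among the called members 18 fell by at least 2-fold, against 3.62% of all genes. In 45 of the 55, or 81.8%, all 3 PM2.5 libraries lay below all 3 control libraries, against 22.7% of all genes. CENPE and PIF1 reached 0.5 FPKM in 5 libraries each, and passed the filter only with the control libraries. Among the 52 members with at least 0.5 FPKM in all 9 libraries, 40 fell, or 76.9%, and 0 rose. Of these 52, 16 fell by at least 2-fold. In these bulk samples, fewer cells in G2 and mitosis and less of each transcript per cell cannot be told apart.

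The depth of the decrease differed between the role groups, and it also varied with transcript make-up and level, as given below. All 9 kinesins, all 7 kinetochore proteins, all 7 tested spindle proteins, all 3 cytokinesis factors and all 5 chromatin or transcription genes fell, and the medians of their log2 fold changes were -1.27, -0.68, -1.28, -0.89 and -0.73. In the groups of cyclins and CDK1, mitotic kinases, and checkpoint and anaphase factors, 4 of 9, 4 of 7 and 4 of 8 fell, with medians of -0.32, -0.38 and -0.38. The 12 members that did not pass the test all came from those 3 groups. They were CCNB1, CCNF, CDC25B, CKS1B, CKS2, AURKB, BUB1, PBK, MAD2L1, CDC20, UBE2S and PTTG1. The differences between role groups were not tested.

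**Figure D1:**
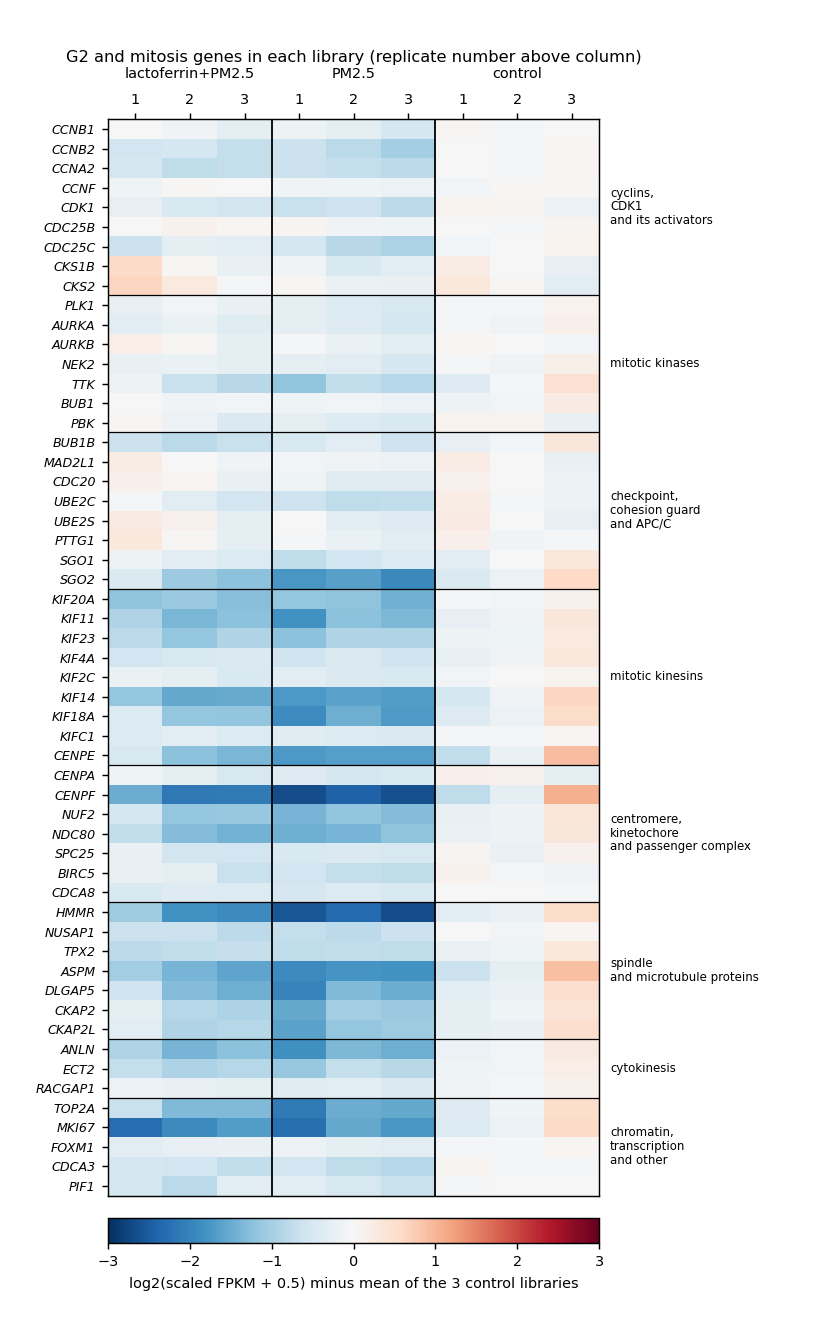
Level of the 55 tested members (rows, by role) in each of the 9 libraries (columns), as log2(scaled FPKM + 0.5) minus the mean of the 3 control libraries; blue is below that mean and red above it. Averaged over the members, lactoferrin+PM2.5 replicates 1 to 3 stood at -0.41, -0.64 and -0.72, PM2.5 replicates at -0.86, -0.79 and -0.88, and control replicates at -0.12, -0.08 and 0.19.

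Among the cyclins and their partner kinase, the genes of the mitotic cyclins moved unequally. CCNB2, which encodes cyclin B2, had 9.67, 10.3 and 9.19 FPKM with lactoferrin+PM2.5, 9.29, 8.50 and 7.45 FPKM with PM2.5, and 14.9, 14.4 and 14.9 FPKM in control cells. Every treated library lay well below every control library, and the 2 treated groups overlapped. Its log2 fold change with PM2.5 was -0.82 ± 0.10 (SE, n = 3 each), with an adjusted p of 0.000381 in limma. CCNB1, which encodes cyclin B1, the main partner of CDK1 at mitotic entry, had 53.2, 49.5 and 44.8 FPKM with lactoferrin+PM2.5, 47.4, 44.5 and 38.4 FPKM with PM2.5, and 55.0, 51.7 and 50.3 FPKM in control cells. The PM2.5 libraries lay just below the control libraries without overlap, while the lactoferrin+PM2.5 libraries spanned both. The log2 fold change of CCNB1 with PM2.5 was -0.32 ± 0.11 and missed the threshold (adjusted p = 0.0555, limma). CCNA2, which encodes cyclin A2 of S and G2 phase, had 21.25, 18.01 and 18.99 FPKM with lactoferrin+PM2.5, 19.3, 18.7 and 18.4 FPKM with PM2.5, and 30.8, 29.6 and 29.9 FPKM in control cells. The control libraries were the 3 highest by a wide gap.

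CDK1, the kinase at the centre of mitotic entry, had 26.1, 22.7 and 21.8 FPKM with lactoferrin+PM2.5, 19.3, 20.5 and 18.7 FPKM with PM2.5, and 33.7, 33.3 and 25.9 FPKM in control cells. The 3 PM2.5 libraries were the lowest and did not overlap either other group, and control replicate 3 was close to lactoferrin+PM2.5 replicate 1. With PM2.5 the log2 fold change of CDK1 was -0.69 ± 0.11 (adjusted p = 0.00152, limma). CDC25C, a phosphatase that switches CDK1 on, averaged 1.28 ± 0.25 FPKM with PM2.5 and 2.44 ± 0.13 FPKM in control cells (SD, n = 3 each) and also fell, by 0.77 on the log2 scale. Its relative CDC25B changed least in the group, with 25.4, 28.5 and 27.6 FPKM under lactoferrin+PM2.5, 27.3, 24.5 and 24.4 FPKM under PM2.5, and 25.5, 24.8 and 25.8 FPKM in control cells. The 3 groups of CDC25B overlapped throughout. CKS2, a small CDK subunit, had the highest level of all members, averaging 240.9 ± 51.5 FPKM with lactoferrin+PM2.5, 179.4 ± 15.1 FPKM with PM2.5 and 193.1 ± 49.1 FPKM in control cells. Its libraries overlapped between all 3 groups, and it was not called in any comparison in limma without a replicate block.

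Of the 7 mitotic kinases PLK1, AURKA, NEK2 and TTK fell with PM2.5, and AURKB, BUB1 and PBK did not pass the test. PLK1, which drives mitotic entry and spindle assembly, had 10.8, 12.4 and 11.5 FPKM with lactoferrin+PM2.5, 10.5, 9.87 and 9.51 FPKM with PM2.5, and 12.7, 12.5 and 13.4 FPKM in control cells. The groups did not overlap, with PM2.5 lowest and control highest. PLK1 fell by 0.40 ± 0.09 on the log2 scale with PM2.5 (SE, adjusted p = 0.00774, limma). AURKA, the centrosomal Aurora kinase, had 36.7, 40.3 and 37.1 FPKM with lactoferrin+PM2.5, 37.6, 35.6 and 33.2 FPKM with PM2.5, and 45.0, 42.6 and 48.6 FPKM in control cells. Its control libraries were the 3 highest, and its log2 fold change with PM2.5 was -0.40 ± 0.10 (adjusted p = 0.0125, limma; 0.056 without PM2.5 replicate 3). AURKB, the Aurora kinase of the chromosomal passenger complex, had 26.9, 24.9 and 20.2 FPKM with lactoferrin+PM2.5, 22.7, 21.1 and 19.4 FPKM with PM2.5, and 25.2, 24.1 and 21.5 FPKM in control cells, so that all 3 groups overlapped. The test on AURKB gave an adjusted p of 0.24.

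TTK, the kinase that starts the spindle checkpoint, changed most among the kinases, with 7.69, 5.33 and 4.83 FPKM under lactoferrin+PM2.5, 3.53, 5.11 and 4.80 FPKM under PM2.5, and 6.57, 8.34 and 11.4 FPKM in control cells. The PM2.5 libraries were all below the control libraries, which themselves spread widely. TTK fell by 0.92 ± 0.24 on the log2 scale (adjusted p = 0.0149, limma; 0.057 without PM2.5 replicate 1). BUB1, another checkpoint kinase, changed least, with 12.3, 11.7 and 12.3 FPKM under lactoferrin+PM2.5, 11.4, 12.0 and 11.5 FPKM under PM2.5, and 11.2, 11.8 and 14.3 FPKM in control cells. Control replicates 1 and 2 lay among the treated libraries or just below them.

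In the checkpoint and anaphase group, the guardian of centromeric cohesion SGO2 stood apart. SGO2 had 2.06, 1.15 and 1.03 FPKM with lactoferrin+PM2.5, 0.543, 0.651 and 0.430 FPKM with PM2.5, and 2.11, 2.62 and 4.52 FPKM in control cells. The groups did not overlap, with control replicate 3 far above the rest and lactoferrin+PM2.5 replicate 1 just under the lowest control library. Its PM2.5 mean was 17.5% of the control mean, and its log2 fold change was -1.77 ± 0.28 (adjusted p = 0.00135, limma). UBE2C, the ubiquitin-conjugating enzyme that feeds the anaphase-promoting complex, averaged 49.1 ± 1.7 FPKM with PM2.5 and 78.7 ± 13.3 FPKM in control cells and fell by 0.71 on the log2 scale. BUB1B, which encodes the checkpoint protein BubR1, and SGO1, the other shugoshin, fell by 0.48 and 0.58. Leaving out 1 library could end either call, with adjusted p of 0.053 to 0.094 for BUB1B (without control replicate 3, PM2.5 replicate 1 or PM2.5 replicate 3) and 0.0573 to 0.0795 for SGO1 (without control replicate 2 or 3, or PM2.5 replicate 1 or 2). CDC20, the activator of the complex that the checkpoint holds back, had 79.6, 76.1 and 64.3 FPKM with lactoferrin+PM2.5, 66.1, 57.2 and 58.5 FPKM with PM2.5, and 80.3, 73.2 and 61.6 FPKM in control cells. Control replicate 3 lay among the PM2.5 libraries, and CDC20 did not pass the test (log2 fold change -0.28 ± 0.12, adjusted p = 0.109, limma). MAD2L1, which encodes the checkpoint protein MAD2, had 19.1, 16.9 and 15.8 FPKM with lactoferrin+PM2.5, 15.6, 15.6 and 15.2 FPKM with PM2.5, and 19.4, 16.7 and 13.3 FPKM in control cells. The control libraries of MAD2L1 spanned the whole range of the other groups.

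The kinesins, motors that slide and shorten spindle microtubules, fell as a group, and 6 of the 9 did so by at least 2-fold. KIF18A, which dampens chromosome movement at the metaphase plate, had 4.35, 2.44 and 2.45 FPKM with lactoferrin+PM2.5, 1.24, 1.86 and 1.55 FPKM with PM2.5, and 4.51, 5.24 and 8.57 FPKM in control cells. All PM2.5 libraries were below all others, and lactoferrin+PM2.5 replicate 1 approached the lowest control library. The log2 fold change of KIF18A with PM2.5 was -1.69 ± 0.27 (adjusted p = 0.00153, limma). KIFC1, a minus-end motor that focuses spindle poles, changed least, with 15.6, 17.0 and 16.6 FPKM under lactoferrin+PM2.5, 16.3, 16.0 and 16.2 FPKM under PM2.5, and 21.0, 20.9 and 21.0 FPKM in control cells. Even so, its narrow spread put the control libraries clearly above both treated groups, and its adjusted p was 0.00167 in limma.

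KIF20A, a motor of the central spindle, had the smallest adjusted p of all members, 2.32e-05 in limma. It had 6.72, 7.26 and 6.62 FPKM with lactoferrin+PM2.5, 6.92, 6.89 and 5.93 FPKM with PM2.5, and 15.8, 15.3 and 16.9 FPKM in control cells. Both treated groups were tight and lay at less than the level of every control library, at 42.9% and 41.1% of the control mean. KIF11, the motor that separates the spindle poles, fell by 1.46 ± 0.20 on the log2 scale, KIF14 by 1.66 ± 0.25, KIF23 by 1.01 ± 0.15 and CENPE, which carries chromosomes to the metaphase plate, by 1.68 ± 0.38. CENPE was low throughout, averaging 0.272 ± 0.024 FPKM with PM2.5 and 2.19 ± 1.56 FPKM in control cells (SD, n = 3 each). Each PM2.5 library was under the filter of 0.5 FPKM, so CENPE was tested only through the other groups. Control replicate 3, at 3.95 FPKM, lay far above control replicates 1 and 2, at 0.982 and 1.63 FPKM. Without it the log2 fold change of CENPE was -1.21 ± 0.28 (adjusted p = 0.0140, limma).

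Among the kinetochore proteins CENPF had the largest decrease of all members in the fit of all libraries. CENPF, a large corona protein that accumulates in G2, had 4.53, 2.79 and 2.89 FPKM with lactoferrin+PM2.5, 1.76, 2.22 and 1.89 FPKM with PM2.5, and 7.98, 11.3 and 27.8 FPKM in control cells. The 3 groups did not overlap, and control replicate 3 stood far above the other 2 control libraries. Its log2 fold change with PM2.5 was -2.57 ± 0.39 (adjusted p = 0.00118, limma), and -2.05 ± 0.22 without control replicate 3 (adjusted p = 0.000429). Without that library HMMR, a spindle protein, fell by more than CENPF, at -2.24 ± 0.24. NUF2 and NDC80, partners in the complex that holds microtubules, fell by 1.30 ± 0.20 and 1.35 ± 0.19. SPC25, another subunit of that complex, fell least in the group, with 7.87, 6.37 and 6.36 FPKM under lactoferrin+PM2.5, 6.72, 6.95 and 6.83 FPKM under PM2.5, and 10.1, 8.16 and 9.72 FPKM in control cells. Its control libraries were all above its PM2.5 libraries.

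BIRC5, which encodes survivin of the chromosomal passenger complex, had 22.2, 21.6 and 17.0 FPKM with lactoferrin+PM2.5, 17.5, 16.3 and 15.9 FPKM with PM2.5, and 29.01, 25.91 and 23.35 FPKM in control cells. The PM2.5 and control libraries of BIRC5 were well apart, and lactoferrin+PM2.5 replicate 3 lay among the PM2.5 libraries. BIRC5 fell by 0.68 ± 0.12 on the log2 scale with PM2.5 (adjusted p = 0.00271, limma). CENPA, the centromeric histone, averaged 8.59 ± 0.33 FPKM with PM2.5 and 11.8 ± 2.2 FPKM in control cells and fell by 0.46, a call that was lost without control replicate 1 or 2 or PM2.5 replicate 2 or 3 (adjusted p of 0.0599 to 0.0766, limma).

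The spindle and microtubule proteins held the second largest decrease in the fit of all libraries. HMMR, a hyaluronan receptor that also acts at spindle poles, had 3.49, 1.93 and 1.81 FPKM with lactoferrin+PM2.5, 0.929, 1.20 and 0.867 FPKM with PM2.5, and 6.21, 6.82 and 11.3 FPKM in control cells. The 3 groups were fully separate, with the lactoferrin+PM2.5 libraries in the middle. With PM2.5 the log2 fold change of HMMR was -2.52 ± 0.27 (adjusted p = 0.000166, limma). ASPM, a spindle pole protein, averaged 0.572 ± 0.060 FPKM with PM2.5 and 3.60 ± 2.32 FPKM in control cells and fell by 1.83 ± 0.34. The control libraries of ASPM were at 1.93, 2.64 and 6.25 FPKM, and without control replicate 3 its log2 fold change was -1.37 ± 0.19 (adjusted p = 0.00126, limma). TPX2, which turns on AURKA at the spindle, was abundant, at 53.6 ± 1.1 FPKM with PM2.5 and 88.6 ± 14.6 FPKM in control cells, and fell by 0.75 ± 0.13.

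NUSAP1, a microtubule bundler near chromosomes, fell least among the spindle proteins, with 1.74, 1.78 and 1.61 FPKM under lactoferrin+PM2.5, 1.64, 1.59 and 1.86 FPKM under PM2.5, and 3.11, 2.88 and 3.05 FPKM in control cells. The control libraries of NUSAP1 were clearly the highest. In the GENCODE release 29 annotation 62.2% of its exon length is shared with AC087721.2, which was at 0 in every library. PRC1 was between 0.0806 and 0.206 FPKM in all 9 libraries, and 58.4% of its exon length is shared with other genes, among them AC068831.7 and the antisense gene PRC1-AS1. Whether shared exons lowered these counts was not tested.

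All 3 cytokinesis factors fell. ANLN, the anillin scaffold of the contractile ring, had 19.1, 13.7 and 15.8 FPKM with lactoferrin+PM2.5, 9.81, 14.4 and 13.5 FPKM with PM2.5, and 32.6, 34.4 and 41.8 FPKM in control cells. The treated groups overlapped each other and both lay far below the control libraries. ANLN fell by 1.55 ± 0.18 on the log2 scale with PM2.5 (adjusted p = 0.000235, limma). RACGAP1, a subunit of the centralspindlin complex, had 17.7, 17.6 and 17.5 FPKM with lactoferrin+PM2.5, 15.8, 16.4 and 15.5 FPKM with PM2.5, and 18.99, 20.07 and 21.34 FPKM in control cells. Its 3 groups did not overlap, and its decrease with PM2.5 was the smallest of the group, 0.38 ± 0.08.

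The chromatin and transcription genes include the usual markers of proliferation. MKI67, which encodes the Ki-67 protein that coats mitotic chromosomes, had 5.97, 8.03 and 9.88 FPKM with lactoferrin+PM2.5, 6.10, 10.7 and 9.36 FPKM with PM2.5, and 23.9, 28.0 and 44.5 FPKM in control cells. Both treated groups covered the same low range, and every control library was far above the highest treated one. The log2 fold change of MKI67 with PM2.5 was -1.85 ± 0.27 (adjusted p = 0.000981, limma). TOP2A, the topoisomerase that untangles chromosomes, had 33.0, 21.3 and 21.8 FPKM with lactoferrin+PM2.5, 11.8, 18.9 and 18.8 FPKM with PM2.5, and 40.6, 48.4 and 72.9 FPKM in control cells. The groups of TOP2A did not overlap, with PM2.5 lowest, and the log2 fold change with PM2.5 was -1.71 ± 0.27 (adjusted p = 0.00146, limma). FOXM1, the transcription factor of G2 genes, had 14.5, 16.0 and 16.5 FPKM with lactoferrin+PM2.5, 16.5, 15.4 and 15.2 FPKM with PM2.5, and 18.5 FPKM in each of the 3 control libraries. Its decrease was small but lay outside the spread, at 0.28 ± 0.08 on the log2 scale (adjusted p = 0.0202, limma). Without control replicate 2, PM2.5 replicate 2 or PM2.5 replicate 3 the adjusted p of FOXM1 was 0.0518, 0.0718 or 0.0877, above the threshold.

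**Figure D2:**
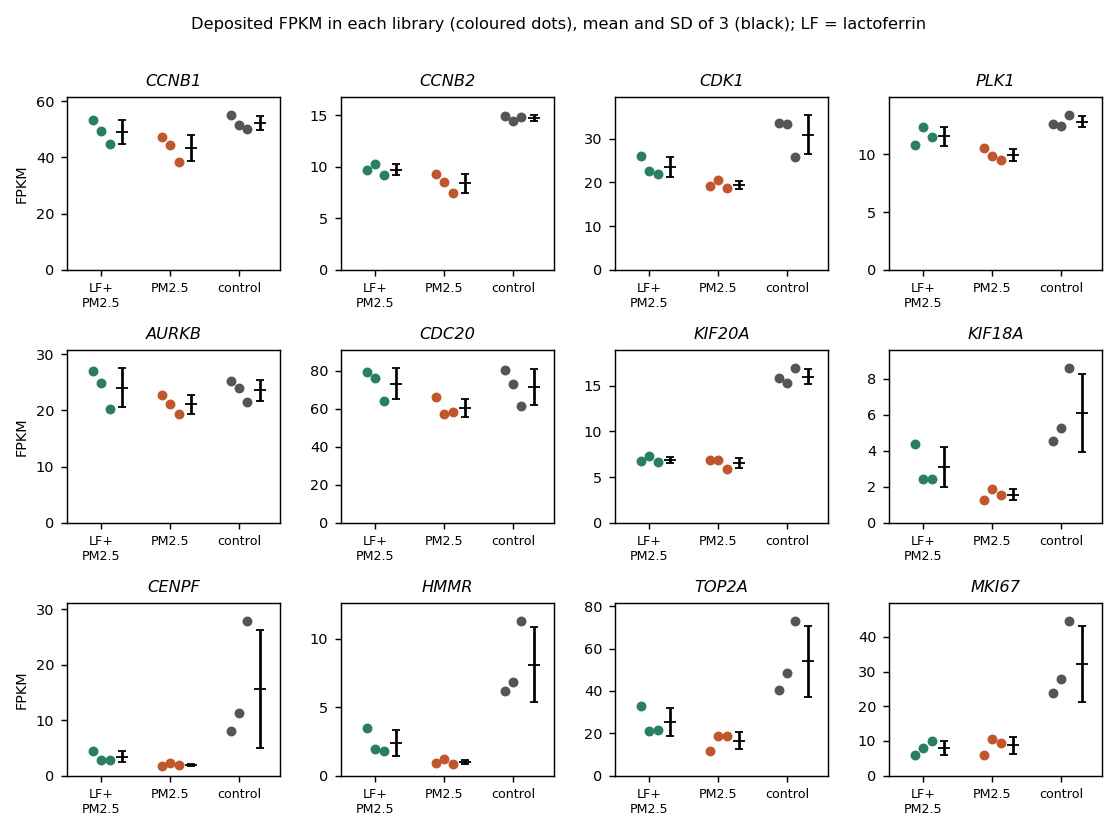
Deposited FPKM of 12 members in each library, with the lactoferrin+PM2.5 libraries at the left of each panel, PM2.5 in the middle and control at the right; black marks give the mean and SD of 3 libraries and each axis starts at 0. CCNB1, AURKB and CDC20 differ little between groups, while KIF20A and MKI67 are low in both treated groups and CENPF and HMMR are lowest with PM2.5.

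With lactoferrin before PM2.5, the members were a little higher than with PM2.5 alone, but no member passed the test. Of the 55 tested members 0 were called higher and 0 lower, against 0.0208% and 0.0277% of all genes, and limma-voom on rebuilt fragments also called 0. At an unadjusted p under 0.05 there were 11 higher, against 5.58% of all genes, and 0 lower, against 6.6%. Log2 fold changes were above 0 for 52 of the 55, or 94.5%, against 51% of all genes, with a median of 0.19, against 0.0050 for all genes. In 18 members, or 32.7%, all 3 lactoferrin+PM2.5 libraries lay above all 3 PM2.5 libraries, against 11.3% of all genes. These counts moved when single libraries of any group were left out. Lactoferrin+PM2.5 replicate 1 had the highest mean member level of its group. Without it, 3 members were higher at an unadjusted p under 0.05, against 3.05% of all genes. In that fit 47 members were above 0 and their median was 0.14, against 0.0072 for all genes. The count of members higher at that p was 4 without PM2.5 replicate 3, against 2.65% of all genes. It was 7 without PM2.5 replicate 2, against 2.89%. It was 18 without control replicate 3 and 18 without lactoferrin+PM2.5 replicate 3, against 7.43% and 11.7%.

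The 11 members were CDK1, CDC25C, PLK1, UBE2C, SGO2, KIF18A, BIRC5, HMMR, CKAP2, CKAP2L and TOP2A, named after their values were seen. HMMR had the largest difference, 0.92 ± 0.27 on the log2 scale, with an unadjusted p of 0.0076 and an adjusted p of 0.311 in limma. SGO2 followed with 0.85 ± 0.28 (adjusted p = 0.348, limma) and KIF18A with 0.78 ± 0.27 (adjusted p = 0.374, limma). MKI67, BUB1B and PIF1 were the 3 members with a difference below 0, at -0.11 ± 0.27, -0.22 ± 0.14 and -0.06 ± 0.17. KIF20A, TPX2, FOXM1 and SPC25 differed by 0.07, 0.0067, 0.0051 and 0.0091 on the log2 scale, each with an SE of 0.08 to 0.13.

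Set against control cells, the lactoferrin+PM2.5 group was lower for 35 of the 55 tested members, or 63.6%, against 18.2% of all genes. None rose in the limma test, against 20.4% of all genes. At an unadjusted p under 0.05 there were 41 lower, against 22.8%, and 0 higher, against 25%. The median log2 fold change was -0.49 for the members and 0.0038 for all genes, and 11 members fell by at least 2-fold, against 4.05% of all genes. In 37 members, or 67.3%, the lactoferrin+PM2.5 libraries lay wholly below the control libraries, against 20.7% of all genes. By role 8 of 9 kinesins, 6 of 7 kinetochore proteins, 7 of 7 spindle proteins, 2 of 3 cytokinesis factors and 5 of 5 chromatin or transcription genes fell, against 4 of 9 in the cyclin group, 1 of 7 kinases and 2 of 8 checkpoint and anaphase factors. MKI67 had the largest decrease, -1.96 ± 0.27 (adjusted p = 0.00058, limma), followed by CENPF with -1.92 ± 0.39 and HMMR with -1.598 ± 0.271.

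This comparison shares its control libraries with that of PM2.5 against control, so the 2 lists of calls are not independent. All 35 members called with lactoferrin+PM2.5 were also called with PM2.5, and 8 were called with PM2.5 but not with lactoferrin+PM2.5. Those 8 were CENPA, CENPE, NEK2, PLK1, RACGAP1, SGO1, TTK and UBE2C. None of the 8 differed between lactoferrin+PM2.5 and PM2.5 at an adjusted p under 0.05. Mean FPKM was highest in control cells, next with lactoferrin+PM2.5 and lowest with PM2.5 in 41 of the 55. It was above the control mean with lactoferrin+PM2.5 in 9 members, AURKB, CCNF, CDC20, CDC25B, CKS1B, CKS2, MAD2L1, PTTG1 and UBE2S, and below the PM2.5 mean in 5, BUB1B, FOXM1, MKI67, PIF1 and TPX2. In limma without a replicate block no member of either set was called in those directions.

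**Figure D3:**
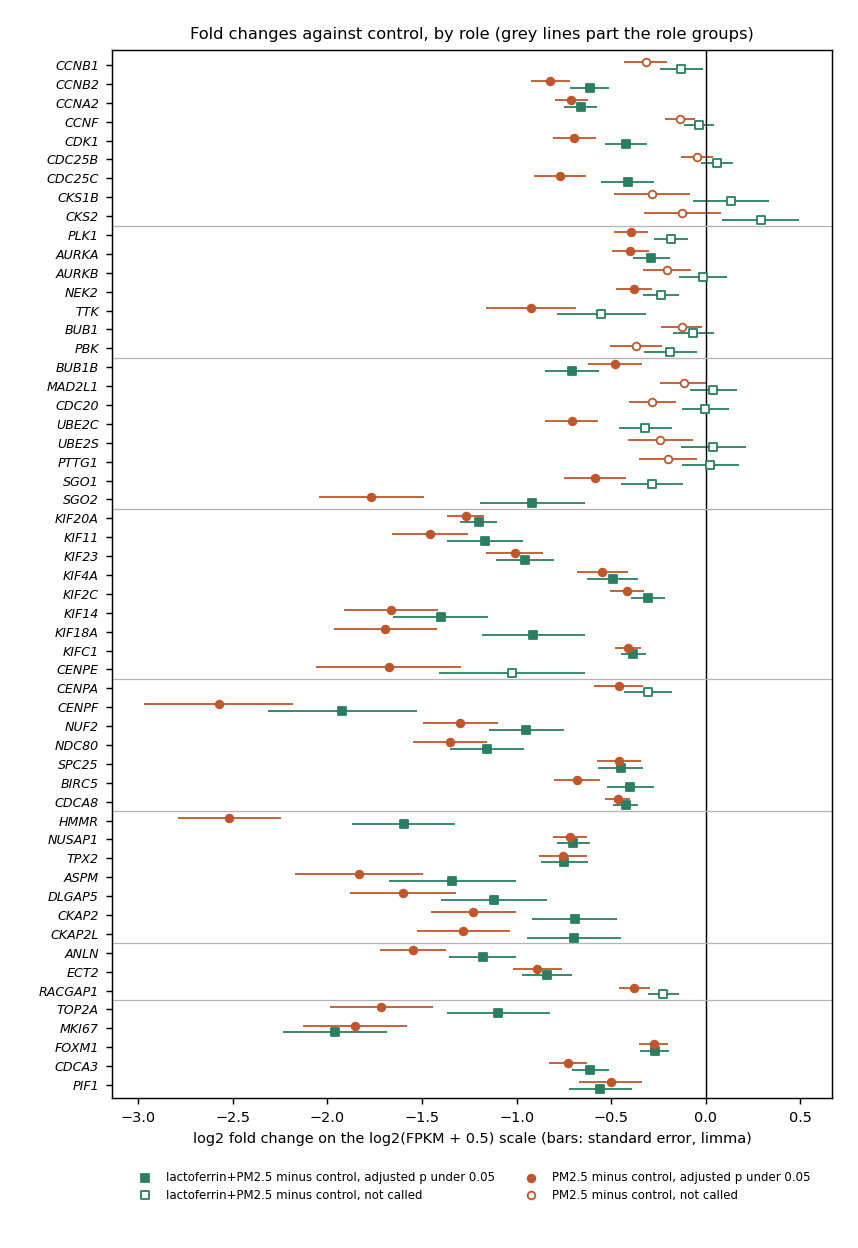
Log2 fold change of each tested member against control (points, with SE bars from limma) for lactoferrin+PM2.5 (squares) and PM2.5 (circles), by role group; filled points have an adjusted p under 0.05. The PM2.5 points lie between -2.57 and -0.05, and the lactoferrin+PM2.5 points between -1.96 and 0.29, most of them nearer to 0.

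The other genes of mitosis, in 7 lists, were read in the same fit, in which 16.4% of all genes fell and 18.7% rose with PM2.5. Among 20 other kinesins and spindle proteins 16 fell with PM2.5 and 0 rose, with a median log2 fold change of -0.44. STMN1, a protein that destabilises microtubules, averaged 31.1 ± 0.8 FPKM with PM2.5 and 59.1 ± 3.9 FPKM in control cells, and DEPDC1, a mitotic regulator, 4.57 ± 0.63 FPKM with PM2.5 and 9.04 ± 0.45 FPKM in control cells. Of 27 tested other centromere and kinetochore proteins 14 fell and 1, MIS12, rose, with a median of -0.28. KNTC1, a checkpoint adaptor at kinetochores, fell by 0.85 ± 0.15 and SKA2, a microtubule-binding subunit, by 0.69 ± 0.12. Of 18 genes of condensin, cohesin and separase, which shape and hold chromatids, 8 fell and 0 rose, with a median of -0.39. SMC4, a condensin core subunit, averaged 3.97 ± 0.65 FPKM with PM2.5 and 18.5 ± 8.3 FPKM in control cells, and NCAPG, another condensin subunit, 6.08 ± 0.91 FPKM with PM2.5 and 13.02 ± 1.93 FPKM in control cells.

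The other 4 lists hold regulators of mitosis and genes of other phases, and the lists were not tested against each other. Of 16 subunits and regulators of the anaphase-promoting complex 5 fell (ANAPC4, ANAPC15, CDC27, FZR1 and FBXO5) and 1 rose (ANAPC7), with a median of -0.14. These are 31.2% and 6.25%, against 16.4% and 18.7% of all genes, and without control replicate 2 or PM2.5 replicate 3 there were 2 lower and 0 higher. FZR1, the late activator of the complex, fell by 0.47 ± 0.10, and FBXO5, its inhibitor in S and G2 phase, by 0.68 ± 0.14. Of 28 genes of the G1/S transition and replication 5 fell, among them GINS2, MCM5, MCM7 and RRM2, and 2 rose (CCNE1 and CCND1), which is 17.9% and 7.14% against 16.4% and 18.7% of all genes, with a median of -0.06. CCND1, which encodes cyclin D1 of G1 phase, averaged 23.0 ± 2.4 FPKM with PM2.5 and 5.74 ± 0.45 FPKM in control cells, an increase of 1.86 ± 0.10 on the log2 scale.

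Of 16 genes that hold back or time mitotic entry 9 fell with PM2.5 and 3 rose (CDKN1A, CDC25A and GADD45A). The shares were 56.2% lower, against 16.4% of all genes, and 18.8% higher, against 18.7%. CDKN1A, which encodes the CDK inhibitor p21, had 114.9, 116.3 and 106.8 FPKM with lactoferrin+PM2.5, 89.6, 77.2 and 81.5 FPKM with PM2.5, and 35.3, 31.6 and 24.1 FPKM in control cells. The 3 groups of CDKN1A did not overlap, with lactoferrin+PM2.5 highest. Its log2 fold change was 1.86 ± 0.13 for lactoferrin+PM2.5 against control (adjusted p = 8.0e-06, limma) and 1.40 ± 0.13 for PM2.5 against control (adjusted p = 5.3e-05, limma). Between lactoferrin+PM2.5 and PM2.5 it was 0.45 ± 0.13, with an adjusted p of 0.304. WEE1, the kinase that keeps CDK1 off, averaged 3.12 ± 0.12 FPKM with lactoferrin+PM2.5, 3.82 ± 0.42 FPKM with PM2.5 and 4.92 ± 0.40 FPKM in control cells. GADD45B, a stress-induced gene, fell by 1.38 ± 0.10 with PM2.5.

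Of 21 genes of the MuvB complex, B-MYB and the E2F factors, which control transcription of the members, 5 fell with PM2.5 (MYBL2, E2F8, TFDP2, RBL2 and NFYB) and 2 rose (LIN52 and E2F5), with a median of -0.0046. These are 23.8% and 9.52%, against 16.4% and 18.7% of all genes. MYBL2, which encodes B-MYB, averaged 88.7 ± 6.5 FPKM with lactoferrin+PM2.5, 80.9 ± 3.6 FPKM with PM2.5 and 110.9 ± 7.9 FPKM in control cells, and fell by 0.50 ± 0.10 with PM2.5. E2F8, a repressor of the E2F family, fell by 0.89 ± 0.12, and LIN52, a core MuvB subunit, rose by 0.61 ± 0.10. Between lactoferrin+PM2.5 and PM2.5 the limma test called 0 genes in any of the 7 lists, and voom also called 0 in each. At an unadjusted p under 0.05, 5.58% of all genes were higher and 6.6% lower. Higher were 4 of 18 condensin, cohesin and separase genes, 4 of 28 G1/S genes and 2 of 27 other centromere proteins. So were 1 of 20 other kinesins and spindle proteins, 1 of 16 genes that time mitotic entry and 1 of 21 MuvB and E2F genes. The anaphase-promoting complex list held 0 of 16. Lower were 1 gene that times mitotic entry and 1 MuvB or E2F gene.

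The size of the decrease varied with the make-up of the transcripts. Across the 55 members the log2 fold change with PM2.5 went with the GC content of the longest transcript (Pearson's r = 0.58, Spearman's rho = 0.61) and, inversely, with its log2 length (r = -0.60, rho = -0.52). It also went with the mean log2 level of the gene over all libraries (r = 0.49, rho = 0.53), a mean that includes the treated libraries. These correlations are across genes of the same 6 libraries and are given as descriptions. Over 14436 tested genes with a transcript model the values were r = 0.17 for GC content, r = -0.05 for length and r = 0.02 for level. The median GC content was 42.6% for members and 48.2% for all genes. Among the genes with the least GC, up to 41.0%, 19 of 21 members fell with a median of -1.46, while 24.5% of all genes in that bin of 2887 fell and their median was -0.13.

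Control replicate 3 showed a like relation. It is part of the control mean from which the fold changes were taken, so these relations are not independent of each other. Control replicate 3 minus the mean of the other 2 control libraries rose with length (r = 0.76) and declined with GC content (r = -0.52) across the members, and across all genes r was 0.19 and -0.22. With the mean log2 level r was -0.59 across the members and -0.0088 across all genes. Lactoferrin+PM2.5 replicate 1 minus the mean of the other 2 libraries of its group declined with GC content across the members (r = -0.60; all genes, -0.10). The fit used called 2374 of all genes lower with PM2.5 and 2625 with lactoferrin+PM2.5. Without control replicate 3, 41 members fell with PM2.5 and 28 with lactoferrin+PM2.5, against 2006 and 2132 of all genes. Without both libraries the counts were 45 and 36, against 2711 and 2478 of all genes. With the trend of the values on length and GC content subtracted in each library, an alternative chosen after seeing the data, 46 members fell with PM2.5, with a median of -0.63, and 38 with lactoferrin+PM2.5. That fit called 2913 and 2990 of all genes lower. CENPF then fell by 2.38 ± 0.36 and HMMR by 2.31 ± 0.24 with PM2.5. The part of transcript length, GC content and level in the size of the decreases was not tested further.

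**Figure D4:**
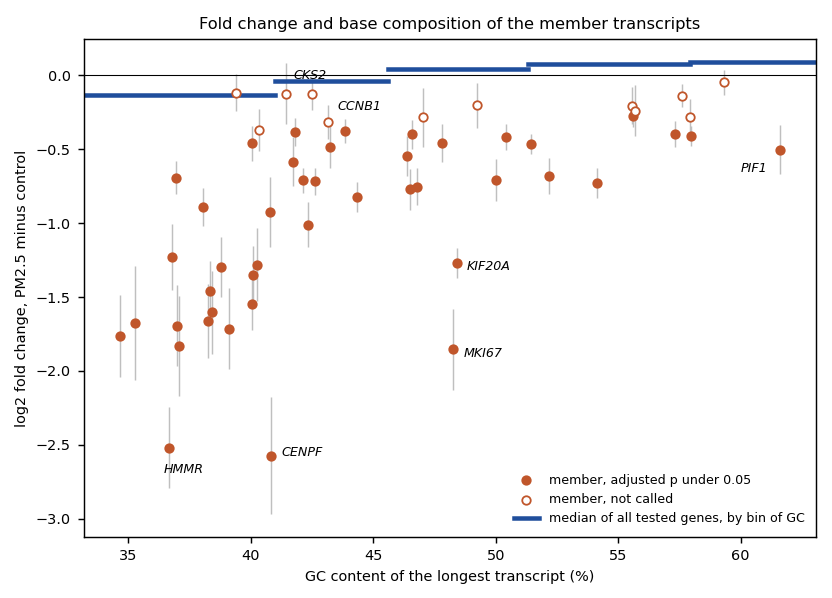
Log2 fold change of each member for PM2.5 minus control (vertical axis, SE bars) against the GC content of its longest transcript in percent (horizontal axis); filled points have an adjusted p under 0.05 and blue lines give the median of all tested genes in each of 5 equal bins of GC content. Each member but MAD2L1, at -0.12, lies below the blue line of its bin, and the 21 members with the least GC have a median of -1.46.

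Many promoters of the members share short sequence elements. The shares below describe the list, whose genes were introduced above as under MuvB control. The cell cycle genes homology region, or CHR, is the element bound by MuvB complexes, and CCAAT is the box bound by NF-Y. Windows from 250 bases before to 50 after the start were taken from RefSeq on GRCh38.p14 and were held for 48 of the 56 members and 9624 tested genes; AURKA, BIRC5, FOXM1, PBK, RACGAP1, TPX2, TTK and UBE2C had none. The CHR was searched as TTTGAA or TTCGAA and the box as CCAAT, each on both strands, and matches could overlap. A CHR was found in 35 of the 48 members, or 72.9%, and in 10.8% of all windows of that length. CCAAT was found in 39 members, or 81.2%, and in 37% of all windows. Both were in 31 members, or 64.6%, and in 4.7% of all windows. With TTTGAA as the lone form of the CHR the shares were 68.8% and 9.24%, and over any listed start of a gene they were 77.1% and 15% for both forms.

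The 250 bases before the start are shown for 6 members, with CHR and CCAAT matches in capitals, in 5′ to 3′ direction on the strand of the gene. HMMR (chr5:163460382-163460631, plus strand) and MKI67 (chr10:128126424-128126673, minus strand) were among those that fell most. CCNB2 (chr15:59104896-59105145, plus strand) and PLK1 (chr16:23678639-23678888, plus strand) fell by less. CDC20 (chr1:43358731-43358980, plus strand) and CCNB1 (chr5:69166900-69167149, plus strand) did not pass the test.
HMMR: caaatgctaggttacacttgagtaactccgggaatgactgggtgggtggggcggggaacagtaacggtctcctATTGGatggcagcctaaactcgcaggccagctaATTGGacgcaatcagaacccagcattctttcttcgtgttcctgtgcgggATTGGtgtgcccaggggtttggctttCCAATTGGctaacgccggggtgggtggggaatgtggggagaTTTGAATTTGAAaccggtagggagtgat
MKI67: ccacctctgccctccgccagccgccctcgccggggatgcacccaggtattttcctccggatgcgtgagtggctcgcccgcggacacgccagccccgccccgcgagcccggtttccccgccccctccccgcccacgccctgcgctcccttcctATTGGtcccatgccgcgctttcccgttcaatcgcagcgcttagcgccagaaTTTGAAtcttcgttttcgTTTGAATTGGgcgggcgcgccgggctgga
CCNB2: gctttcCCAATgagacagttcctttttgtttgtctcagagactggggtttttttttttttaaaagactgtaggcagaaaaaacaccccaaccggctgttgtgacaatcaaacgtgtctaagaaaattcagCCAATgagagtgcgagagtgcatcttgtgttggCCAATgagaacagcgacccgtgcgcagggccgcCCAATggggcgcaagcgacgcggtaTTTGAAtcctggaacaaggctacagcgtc
PLK1: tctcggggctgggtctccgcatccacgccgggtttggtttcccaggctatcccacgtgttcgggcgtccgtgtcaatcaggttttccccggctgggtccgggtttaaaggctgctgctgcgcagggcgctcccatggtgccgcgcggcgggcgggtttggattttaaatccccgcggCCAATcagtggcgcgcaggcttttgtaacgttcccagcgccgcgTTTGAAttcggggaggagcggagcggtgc
CDC20: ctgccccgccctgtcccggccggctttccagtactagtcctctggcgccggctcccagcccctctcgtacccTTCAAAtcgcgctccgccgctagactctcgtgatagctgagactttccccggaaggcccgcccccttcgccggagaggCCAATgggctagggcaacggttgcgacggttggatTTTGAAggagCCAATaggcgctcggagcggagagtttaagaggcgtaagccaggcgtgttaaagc
CCNB1: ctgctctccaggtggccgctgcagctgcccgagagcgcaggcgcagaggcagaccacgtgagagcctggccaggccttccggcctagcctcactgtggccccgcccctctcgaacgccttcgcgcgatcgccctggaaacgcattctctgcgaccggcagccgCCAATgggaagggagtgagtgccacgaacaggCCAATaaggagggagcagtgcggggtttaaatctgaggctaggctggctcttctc
HMMR holds 2 adjoining CHR matches and 5 of CCAAT, MKI67 2 of each, CCNB2 1 CHR and 4 CCAAT, PLK1 1 of each, CDC20 2 of each and CCNB1 0 CHR and 2 CCAAT. Genes with both elements thus stand among the members that fell most and among those that did not pass the test.

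Among the 34 tested members with a CHR, 28 fell with PM2.5, a comparison in which 16.4% of all tested genes fell. Their log2 fold changes had a median of -0.72 and ran from -2.57 to -0.12. Among the 13 without one, 8 fell, with a median of -0.42 and a range of -1.77 to -0.05. With CCAAT 28 of 38 fell, with a median of -0.64, and without it 8 of 9 fell, with a median of -1.23. CENPF, HMMR, MKI67 and ASPM, each with both elements, lay beyond the range of the members with no CHR, and the differences were not tested. Calls among all tested genes with a CHR or CCAAT were not counted. A match of letters is not a bound site, and the lack of one says nothing of a factor.

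**Figure D5:**
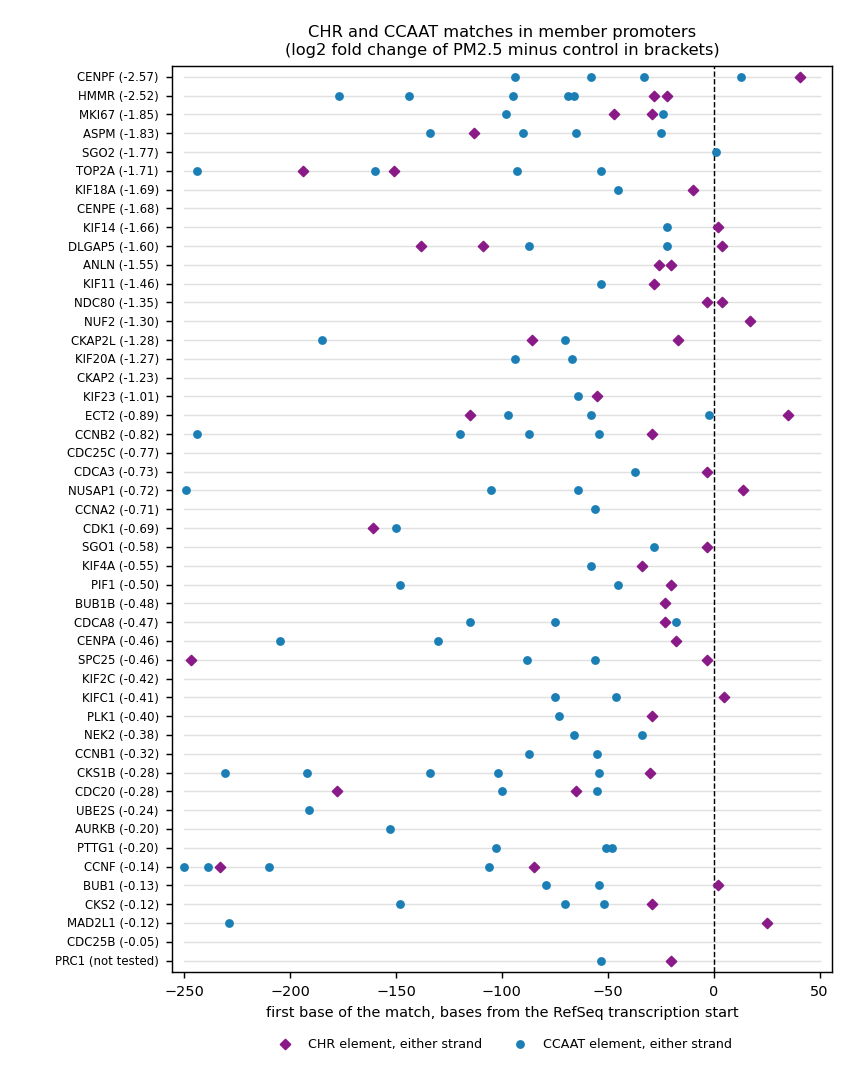
Position of CHR (diamonds) and CCAAT (circles) matches on either strand in the window of each of 48 members, in bases from the RefSeq start (dashed line), with members ordered by log2 fold change of PM2.5 minus control. Matches of both kinds gather in the last 100 bases before the start and occur at the top of the order (CENPF, -2.57) as well as near its foot (CKS2, -0.12).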

How the data were processed

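Each of the 9 libraries came as 1 table of FPKM values per Ensembl gene, deposited by the authors. Per the submitters' processing notes, the tools named are HISAT2 2.1.0, featureCounts 1.6.0, Trimmomatic 0.38, DESeq2 1.22.1, CASAVA, FastQC and MultiQC on build GRCh38, with no order or settings stated. The sources used here do not give the annotation, the strand setting or how FPKM was computed. That the values are FPKM was read from the values: multiplied by the exon length of GENCODE release 29, 86.0% to 87.2% of low ones were whole multiples, within 0.05, of 1 step per library. These steps gave 15314492 to 18816306 fragments per library. Antisense and overlapping genes could not be told apart without the strand setting.

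FPKM were divided by trimmed-mean factors of 0.943 to 1.037. Genes with at least 0.5 FPKM in at least 3 libraries were kept, 0.5 was added before log2, and limma 3.58.1 in R 4.3.3 (trend, robust) was fitted over all 9 libraries with Benjamini-Hochberg adjustment over 14454 genes. Fold changes are on this log2(FPKM + 0.5) scale, which understates changes of low genes. Errors of fold changes are limma's SE, and those of FPKM are SD over 3 libraries. The fit was tested on simulated data.

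Libraries were grouped by their labels. The members and lists were chosen with earlier results of these data known. Per-library values are given for 11 well-known members and, in each role group, for the members with the largest and smallest change with PM2.5; of each other list the 2 genes with the smallest adjusted p are named, with CDKN1A, WEE1 and MYBL2, except 1 gene that is not reported here. KIF20A, CKS2, UBE2C and the further members named with a mean or fold change only were chosen after their values were seen, as were list members named beside a count of 5 or fewer. Alternatives were other scaling, filters, added constants, a replicate block, voom, fewer libraries and removal of a length and GC trend. Positions and sequences of promoters come from RefSeq on GRCh38.p14.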

Additional observations from a re-analysis of the deposited data

How the results depend on the processing

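Counts of members called lower were stable in direction: 37 to 46 with PM2.5 against control over the alternatives that keep the length and GC trend, and 25 to 37 with lactoferrin+PM2.5 against control, with 0 called higher except as given below. Leaving out each library in turn gave 37 to 45 and 25 to 37, and between lactoferrin+PM2.5 and PM2.5 always 0 in either direction. Of all genes these fits called 1681 to 2768 lower with PM2.5 and 1894 to 2562 with lactoferrin+PM2.5, each against control. PIF1, CENPA, SGO1, BUB1B, FOXM1, TTK, AURKA and NEK2 lost their calls with PM2.5 in at least 1 of these fits, at adjusted p of 0.0518 to 0.127 (limma), and 12 members lost theirs with lactoferrin+PM2.5, at 0.0515 to 0.148. The lowest counts came without PM2.5 replicate 3 and without lactoferrin+PM2.5 replicate 2. Of the 43 and 35 calls, 35 and 22 held under each of the 21 alternatives run for each comparison, and none turned round. PIF1 lost its call with PM2.5 most often, in 10 of 21, and CKAP2L its call with lactoferrin+PM2.5, in 13. Without a filter on low values the counts were 38 and 26, against 1877 and 2251 of all genes.

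Deviations of libraries with the same replicate number correlated by -0.07 to 0.18, and those with different numbers by -0.18 to 0.14. These ranges overlap, so whether the replicate number marks pairs cannot be told from them. With the number as a replicate block the counts were 46 and 31 lower, against 2775 and 2860 of all genes. In that fit 1 member, CKS2, was called higher with lactoferrin+PM2.5 against control, against 3174 of all genes. The cause was not tested. Trend removal together with the block, added after seeing the data, gave 51 lower with PM2.5 against control, against 3099 of all genes.

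Between lactoferrin+PM2.5 and PM2.5 the calls over all genes were few and unsteady, with 4 lower and 3 higher in the fit used, 0 when lactoferrin+PM2.5 replicate 2 or either of the first 2 PM2.5 libraries was left out, 11 lower and 5 higher with voom, and 20 lower and 7 higher with the trend removed. Among the other lists, those with few calls changed most. The anaphase-promoting complex list had 5 lower and 1 higher with PM2.5, but 2 lower and 0 higher without the filter, without control replicate 2 or without PM2.5 replicate 3. The other centromere list had 14 lower, but 9 without the filter, without control replicate 3 or without PM2.5 replicate 1. The G1/S list had 2 higher, but 1 without any single control library, and 8 lower, against 5, with trend removal and the block together.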
